A study of Mus musculus with 2 samples.

Results

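The semaphorins, plexins and neuropilins are a family of guidance ligands and their receptors, and 31 genes of the family were examined here: 20 semaphorins, 9 plexins and 2 neuropilins. They were chosen by name, not by level, although earlier results of these data were known. Each symbol was matched to its gene identifier in the GENCODE M21 annotation. All 31 were found among 43346 mouse genes listed in both tables, of which 42462 have a name in that annotation. The tissue was forebrain taken at embryonic day 12.5 from mice of the B6NCrl strain, and total RNA was sequenced. The 2 libraries form 1 group of biological replicates, each a pool of embryos of mixed sex, with 120 embryos in replicate 1 and 68 in replicate 2. No genotype or agent was varied, and per the labels 10 ng of RNA over 200 nucleotides, with ERCC spike-in RNA, entered each library. Pooling removes the variation between embryos, so the spread given below is between pools.

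Semaphorins share an extracellular sema domain. Class 3 proteins are secreted, classes 4 to 6 span the membrane and the class 7 protein is held by a lipid anchor. Plexins are the main signalling receptors: their cytoplasmic part inactivates small GTPases of the Ras and Rap families and so alters the cytoskeleton and adhesion of growth cones, migrating neurons and vessels. Most class 3 semaphorins reach A-type plexins through a neuropilin, which binds the ligand and has only a short cytoplasmic tail, whereas the membrane-bound classes bind plexins directly.

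The unit of level is TPM, the number of transcripts scaled to a fixed total, which is corrected for transcript length and so can be compared between genes. Spike-ins made up 9.19% of this total in the first replicate and 8.25% in the second. Paired values below are given for replicate 1, then replicate 2. The libraries summed to 33711030 and 34578499 expected counts, of which the family held 63870 and 61811. Of 7 forebrain markers all were at 1 TPM or more, with summed levels of 702.5 and 628.1 TPM, while the 7 Hox genes of hindbrain and spinal cord summed to 0.17 and 0.42 TPM. The tissue also held other cells: the 6 endothelial markers summed to 108.1 and 111.1 TPM, the 8 markers of mesenchyme and meninges to 705.9 and 860.7 TPM, the 4 mural markers to 58.1 and 76.6 TPM, the 4 erythroid markers to 5989 and 8104 TPM, and the 4 microglial markers to 33.5 and 38.8 TPM. In such bulk tissue, fewer cells of a type and less RNA per cell cannot be told apart.

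At a threshold of 1 TPM in both replicates, 27 of the 31 genes were detected, while 60.0% of 21474 named protein-coding genes passed it. At 10 TPM in both replicates 18 of the 31 passed, against a background of 40.7%. The median of the family was 12.9 TPM and that of all named protein-coding genes was 4.60 TPM. Among protein-coding genes at 1 TPM or more in both replicates the median was higher than that of the family, at 21.6 TPM. The 4 genes below the threshold in a replicate were Sema3e, Sema3g, Sema7a and Plxnb3.

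**Figure D1:**
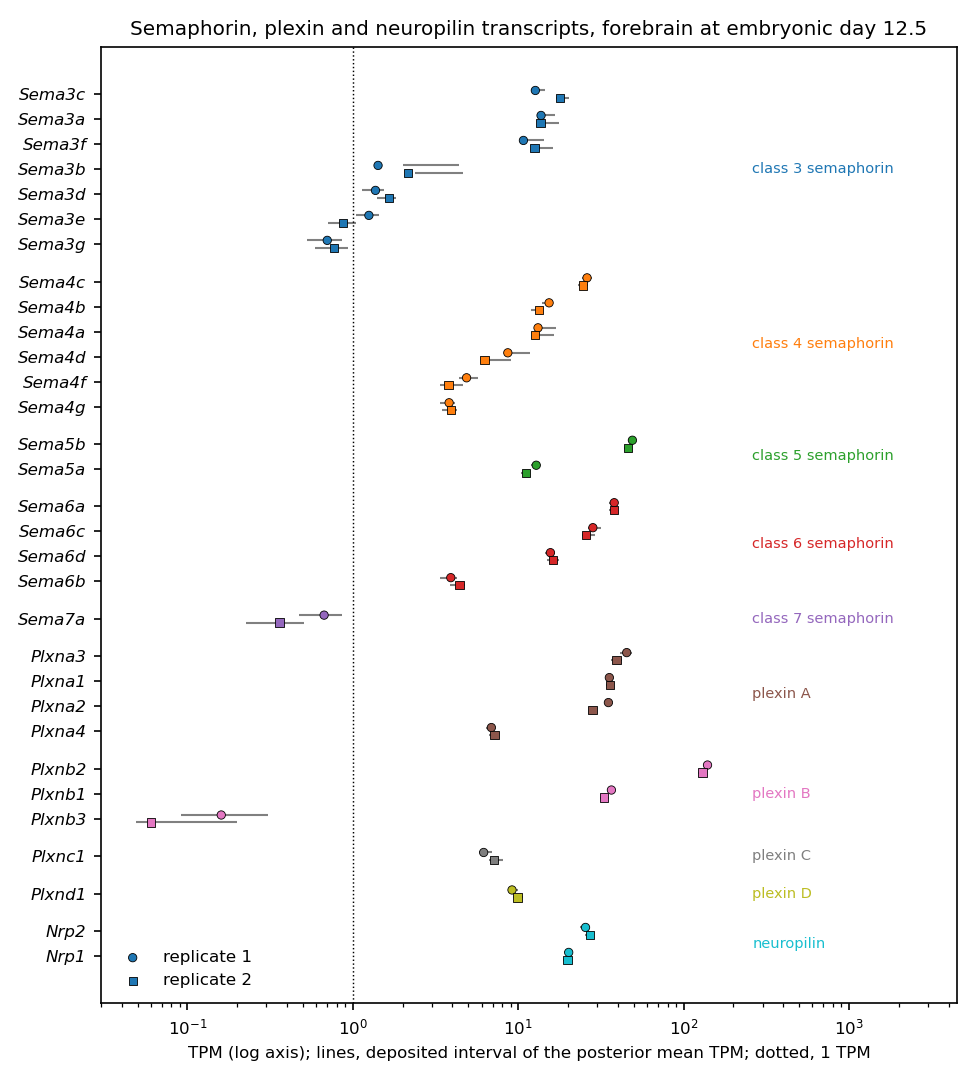
TPM of each gene in replicate 1 (circles) and replicate 2 (squares) on a log axis, grouped and coloured by class, with the deposited interval of each library's posterior mean TPM as a grey line and 1 TPM dotted. Plxnb2 stands highest at 139.5 and 130.4 TPM, and Plxnb3, in the same class, lowest at 0.16 and 0.06 TPM.

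Levels were ordered with a rule of spread and no test was run, since an exact sign permutation test over 2 libraries cannot go below p = 0.5. Any 2 genes were said to differ where their difference in log2(TPM + 1) had the same sign in both replicates and was larger than the difference of either gene between the replicates. By this rule 417 of all 465 pairs of members differed, but only 7 of the 30 pairs that are neighbours in the order did. These breaks lay between Plxnb2 and Sema5b, Sema6a and Plxna1, Sema4c and Nrp1, Nrp1 and Sema6d, Sema3f and Plxnd1, Sema4g and Sema3b, and Sema7a and Plxnb3. Between those breaks the order of neighbouring genes was not resolved. The break between Sema6a and Plxna1 was only 1.07-fold, at 0.0951 and 0.0883 in log2(TPM + 1). It passed because the TPM of both genes repeated closely. With counts scaled by edgeR, replicate 2 minus replicate 1 was -0.134 for Sema6a, which is larger in size than that gap. With coding transcripts alone, 2 of the 7 breaks turned beyond the spread, since Plxna1 was then above Sema6a and Plxnd1 above Sema3f. The same held for 5 of the 417 pairs, among them Plxna3 with Plxnb1 and Sema6c with Nrp1.

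Among the secreted class 3 ligands, 3 genes carried most of the RNA. Sema3c, a ligand of both neuropilins, was at 12.7 and 17.9 TPM. Sema3a, the growth cone repellent that binds Nrp1, was at 13.7 and 13.6 TPM. Sema3f, the main class 3 ligand of Nrp2, was at 10.8 and 12.6 TPM. None of the 3 pairs among these genes differed beyond the spread by gene TPM, but with coding transcripts alone Sema3a exceeded Sema3f 1.88-fold, beyond the spread. The other 4 were far lower: Sema3b was at 1.42 and 2.16 TPM, Sema3d at 1.37 and 1.65 TPM, Sema3e at 1.25 and 0.87 TPM, and Sema3g at 0.70 and 0.77 TPM. Sema3b was 3.31 TPM by the deposited posterior mean, above the value used here, so its level is uncertain. Sema3e differs from the rest of the class in binding Plxnd1 without a neuropilin. Summed over the 7 genes, class 3 reached 41.9 and 49.5 TPM.

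Genes of this class that share a chromosome did not all stand at the same level. On chromosome 5 of GRCm38, Sema3d (12383385 to 12588948), Sema3a (13125414 to 13602565), Sema3e (14025276 to 14256689) and Sema3c (17574281 to 17730268) all lie on the plus strand. In that order their mean levels were 1.51, 13.7, 1.06 and 15.3 TPM, and Sema3a was 9.06-fold above Sema3d and 12.9-fold above Sema3e, both beyond the spread. On chromosome 9, Sema3b (107597674 to 107609229) and Sema3f (107681500 to 107710475) both lie on the minus strand, and Sema3f was 6.51-fold higher, also beyond the spread.

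All 6 class 4 genes, which encode transmembrane ligands best known for binding B-type plexins, were detected. Sema4c, a ligand of Plxnb2, was the highest at 26.1 and 24.6 TPM and exceeded Sema4b 1.77-fold, beyond the spread. Sema4b was at 15.4 and 13.3 TPM and Sema4a at 13.2 and 12.6 TPM, and these did not differ by the rule. Below them came Sema4d, the ligand of Plxnb1, at 8.65 and 6.25 TPM, Sema4f at 4.87 and 3.78 TPM, and Sema4g at 3.82 and 3.91 TPM. By the deposited posterior mean Sema4d was 9.08 TPM and Sema4a 14.8 TPM. For both genes the TPM used here lay below the deposited interval in each replicate, so these levels are uncertain. The class summed to 68.2 ± 5.32 TPM (SD, n = 2).

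The class 5 ligands, which carry thrombospondin repeats, were unequal. Sema5b was at 49.0 and 46.1 TPM, the highest of all 20 semaphorins, and Sema5a at 12.9 and 11.1 TPM. The 3.96-fold difference between their means exceeded the spread.

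Class 6, the transmembrane ligands that bind A-type plexins directly and can also act as receptors themselves, had the highest sum of the ligand classes by gene TPM, at 85.9 and 84.4 TPM. With coding transcripts alone it came to 48.4 ± 3.79 TPM (SD, n = 2), and class 4 was higher in both replicates, at 57.9 ± 4.28 TPM. Sema6a was at 38.1 TPM in each replicate, Sema6c at 28.3 and 25.6 TPM, Sema6d at 15.7 and 16.3 TPM, and Sema6b at 3.91 and 4.42 TPM. Each step of this order within the class exceeded the spread. Sema7a, the lipid-anchored ligand of Plxnc1 and of an integrin containing the beta1 chain, was at 0.67 and 0.36 TPM.

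The A-type plexins take signals from neuropilins and from class 6 ligands. Plxna3 was at 45.3 and 39.3 TPM, Plxna1 at 35.6 and 35.8 TPM, and Plxna2 at 35.1 and 28.1 TPM. Of these 3, only Plxna3 and Plxna2 differed by the rule, with Plxna3 1.34-fold higher. With coding transcripts alone this turned, and Plxna3 was at 0.693 of Plxna2 and 0.555 of Plxna1, both beyond the spread. Plxna4 was lower at 6.88 and 7.18 TPM, and Plxna1 exceeded it 5.07-fold, beyond the spread. Plxna1 shares reads with other genes in the tables, as do Plxna4, Plxnb1 and Sema4c, while the reads of the other 27 members were shared with no other gene. Antisense genes overlap Plxna1, Plxna4 and Plxnb1, and no source used here says whether reads were counted by strand.

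The B-type plexins held both extremes of the family. Plxnb2, a receptor known for its part in neural tube closure and in the proliferation of neural progenitors, was at 139.5 and 130.4 TPM. That level lay at the 94.5th percentile of named protein-coding genes and made up 38.7% of all receptor TPM. With coding transcripts alone the mean was 76.4 TPM for Plxnb2, of 257.4 TPM for all receptors. Plxnb1, the receptor of Sema4d, was at 36.6 and 33.1 TPM, and Plxnb2 exceeded it 3.87-fold, beyond the spread. With coding transcripts alone the excess was 2.51-fold, also beyond the spread. Plxnb3 had 12 and 6 expected counts, or 0.16 and 0.06 TPM. The remaining plexins were intermediate, with Plxnd1, the vascular and neuronal receptor of Sema3e, at 9.17 and 9.91 TPM and Plxnc1, the receptor of Sema7a, at 6.18 and 7.15 TPM.

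Both neuropilins were well detected. Nrp2 was at 25.5 and 27.3 TPM and Nrp1 at 20.2 and 19.9 TPM. Nrp2 was higher in each replicate, by 1.26-fold and 1.37-fold, which exceeded the spread. Nrp1 has a single transcript in the tables, so shorter secreted forms of it could not be separated.

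Nrp2 ends its coding sequence in either of 2 last exons, which give receptors with unrelated transmembrane and cytoplasmic parts. The last 30 coding bases before the stop codon are shown because they set the end of the protein, at which a PDZ protein such as Gipc1 binds neuropilins. They come from the GENCODE M21 transcripts on GRCm38, read 5′ to 3′ on the plus strand, and capitals mark the codons of the last 3 residues. The positions are chr8:128502782-128502811 for Nrp1, chr1:62815605-62815634 for the downstream last exon of Nrp2 and chr1:62795957-62795986 for its upstream last exon.
Nrp1: ctgaacccacagagtaattacTCAGAGGCG
Nrp2 downstream last exon: atcaatcatcagaagtgctgcTCGGAGGCA
Nrp2 upstream last exon: aagctagagcaagagcggggcTCGCACTGC
When translated, the last 3 residues were the same in Nrp1 and the downstream form of Nrp2, and differed in the upstream form.

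The downstream form, usually called the A form, carried 65.3% of the coding Nrp2 TPM in replicate 1 and 63.5% in replicate 2. Its mean share was 64.4 ± 1.26% (SD, n = 2), and the upstream or B form held the other 35.6 ± 1.26%. In TPM these were 15.1 ± 0.177 and 8.39 ± 0.559. The order was the same in both replicates and the gap was far larger than the difference between pools. Gipc1 itself was at 162.1 and 174.7 TPM.

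A pair of smaller choices lies just before these ends, in the stretch between the extracellular domains and the membrane. The first is a 15-base extension of an exon (chr1:62786302-62786316) and the second a 51-base exon (chr1:62812534-62812584). In the sequences below capitals mark the bases that are optional, and lower case the coding bases on either side in the forms that hold them.
Nrp2 extension before the upstream end: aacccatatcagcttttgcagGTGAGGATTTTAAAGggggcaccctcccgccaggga
Nrp2 51-base exon before the downstream end: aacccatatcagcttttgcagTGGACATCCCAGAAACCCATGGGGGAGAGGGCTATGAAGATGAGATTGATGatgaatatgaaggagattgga
The 2 ends differed in how often the extension was used. It was present in 84.0% and 79.7% of the TPM of upstream forms, but in 1.33% and 13.8% of that of downstream forms. The 51-base exon was present in 27.0% and 22.2% of the TPM of downstream forms. The shares of the extension did not overlap between the ends, although within downstream forms the pools themselves differed widely. By the deposited posterior mean the extension was present in 13.8% and 20.4% of downstream forms and in 83.3% and 79.2% of upstream forms.

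Optional coding exons were also compared in Sema6d, Sema3f and Sema6a, and each of the 5 has a length divisible by 3, so that its use leaves the reading frame in place. Those of Sema6d are shown because they lie in the stretch that separates the sema domain from the membrane and were the most evenly used, and that of Sema3f because it is absent from the form that led. Capitals mark the exon, and 15 coding bases stand on either side.
Sema6d 57-base exon (chr2:124660705-124660761, plus strand): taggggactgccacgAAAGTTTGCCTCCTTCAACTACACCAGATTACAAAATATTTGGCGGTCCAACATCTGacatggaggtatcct
Sema6d 168-base exon (chr2:124662204-124662371, plus strand): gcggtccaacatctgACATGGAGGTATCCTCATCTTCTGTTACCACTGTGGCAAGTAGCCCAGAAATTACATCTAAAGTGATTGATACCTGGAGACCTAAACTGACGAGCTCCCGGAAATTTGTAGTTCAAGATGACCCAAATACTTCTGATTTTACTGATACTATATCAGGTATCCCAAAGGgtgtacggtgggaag
Sema3f 93-base exon (chr9:107691356-107691448, minus strand): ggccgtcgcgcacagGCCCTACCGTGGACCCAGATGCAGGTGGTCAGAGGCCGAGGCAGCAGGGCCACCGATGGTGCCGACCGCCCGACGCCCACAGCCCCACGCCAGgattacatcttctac
In Sema6d the 57-base exon was present in 50.5% and 66.0% of the compared TPM, and the 168-base exon in 50.8% and 62.8%. Neither inclusion nor skipping was rare in either pool. The Sema3f exon was present in 20.7% and 33.9%, so that forms without it held most of the TPM in both pools. In Sema6a a 165-base exon was present in 83.0% and 76.2%, and a 51-base exon in 36.1% and 22.2%. These shares come from short reads assigned to whole transcripts, and several moved by over 10 percentage points between the pools.

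**Figure D2:**
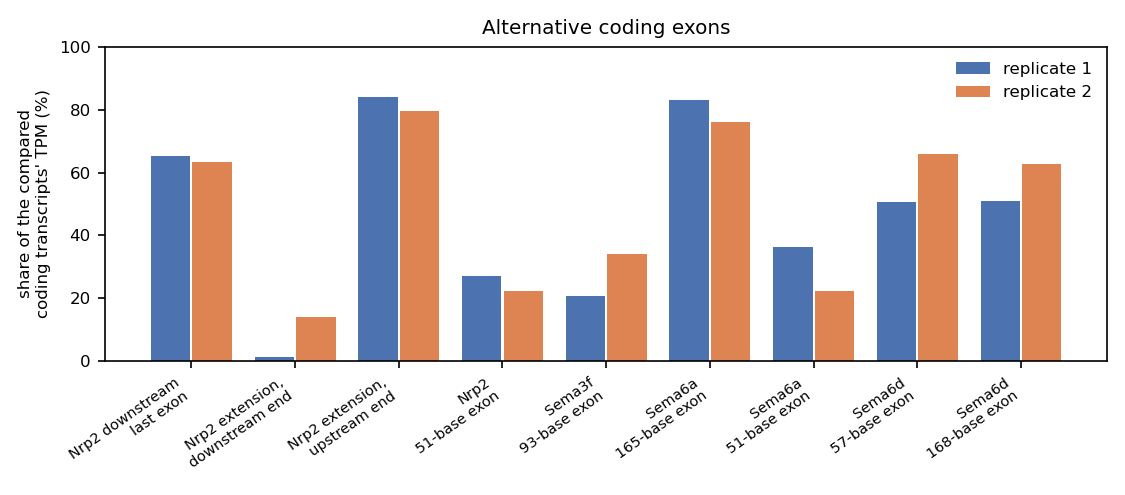
Share of the compared coding transcripts' TPM, in percent, that used each optional coding exon or end, with 1 bar for replicate 1 and 1 for replicate 2. The downstream last exon of Nrp2 stands at 65.3% and 63.5%, and its extension is far more frequent with the upstream than with the downstream end in both pools.

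The annotation also gives these genes transcripts that are not protein-coding, such as those with a retained intron or marked for nonsense-mediated decay, and gene TPM includes them. Of the 27 detected genes, 10 had 25% or more of their TPM in such transcripts, against a background of 20.8% of detected protein-coding genes. Another 10 of the 31 genes had all of their TPM in coding transcripts, Nrp1, Plxna1, Plxna4 and Plxnd1 among them. Of the 31 genes, 6 have 1 listed transcript, which is coding, Nrp1 and Plxna4 among them. The annotation fixed the outcome for these 6 and for Plxna1, Sema3a and Sema6b, whose listed transcripts are all coding. Of the 10 genes, only Plxnd1 lists a transcript that is not coding, Plxnd1-202, at 0 TPM in both replicates. How many of all genes have no TPM outside coding transcripts was not counted. In Plxna3 the mean share outside coding transcripts was 53.2% of TPM but 15.2% of expected counts. In Sema6a it was 46.9% and 55.8% of TPM in the replicates, and 33.1% of expected counts on average. Short transcripts gain weight in TPM because it divides by length.

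The clearest case was Plxnb2. Its transcript Plxnb2-205, listed at 841 bases, took 40.9% of the gene's TPM from 7.84% of its expected counts. In GENCODE M21 all 834 bases of that transcript lie inside exons of the coding transcript Plxnb2-202. Reads that lie within 1 of its exons can therefore match the coding transcript as well. Exon junctions were not compared. Both transcripts have another length in M21 than in the annotation used for counting, with 6497 against 6377 bases for Plxnb2-202. With coding transcripts alone Plxnb2 was at 79.7 and 73.0 TPM, and still ranked first of the 31. Sema6a, Sema6c and Plxna3 had a larger share outside coding transcripts than Plxnb2. Their coding levels were 20.2 and 16.9 TPM for Sema6a, 14.4 and 13.2 TPM for Sema6c, and 21.3 and 18.3 TPM for Plxna3. Sema6a was above Plxna1 by gene TPM and below it by coding TPM. Plxna1 moved from rank 5 to rank 2, and Plxna3 from rank 3 to rank 9. Plxna1 has 2 listed transcripts, both coding, so its level could not fall. Of the 9 listed for Plxna3 only Plxna3-201 is coding. The moves in rank therefore depend on which transcripts are annotated for each gene.

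**Figure D3:**
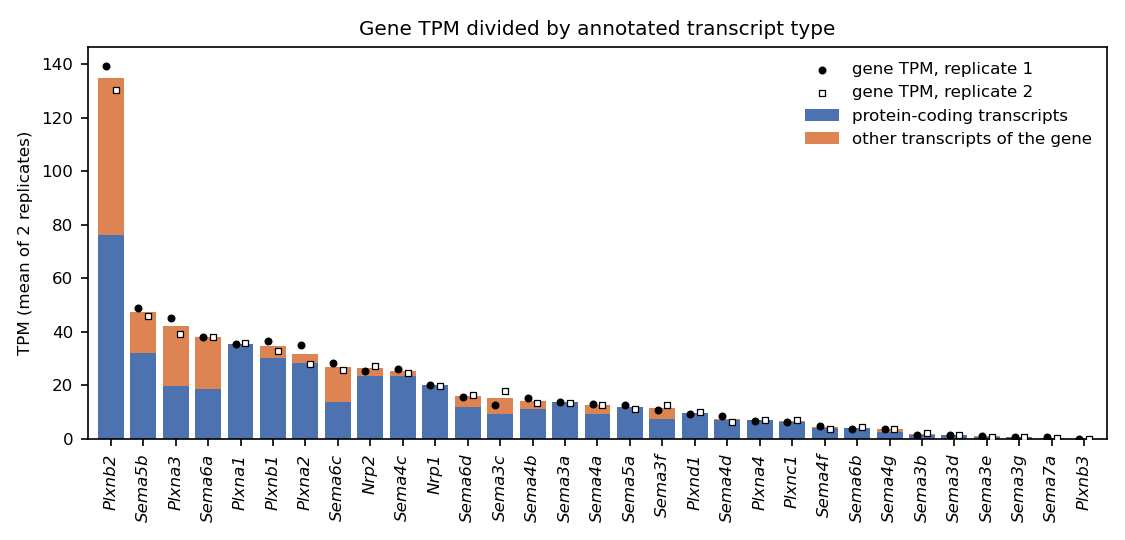
Mean TPM of each gene, divided into protein-coding transcripts (blue) and its other transcripts (orange), with the gene's TPM in replicate 1 (black circles) and replicate 2 (open squares). Plxnb2, Plxna3, Sema6a and Sema6c have large orange parts, and Plxna1 and Nrp1 have none.

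The most abundant transcript of a gene carried a median of 76.4% of its TPM, and in 20 of the 31 genes it carried 50% or more. Both values include 6 genes with 1 listed transcript, whose share is 100% by definition. The same shares were not computed over all genes. The most abundant transcript was not protein-coding in 2 genes, Sema6a, where Sema6a-209 with a retained intron held 27.1%, and the barely detected Plxnb3. Transcripts marked for nonsense-mediated decay held 20.4% in Sema6c (Sema6c-212) and 29.9% in Sema4g (Sema4g-202).

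Receptors were at higher levels than ligands when taken as groups. The 11 plexins and neuropilins had a median of 26.4 TPM and the 20 semaphorins one of 11.8 TPM. The difference in median log2(TPM + 1) was 1.06 and 1.14 in the replicates. Since there are fewer receptor genes, the sums were closer, at 360.1 against 262.3 TPM in replicate 1 and 338.0 against 255.9 TPM in replicate 2. Plxnb2 alone, at 139.5 and 130.4 TPM, exceeded the gap between the sums in each replicate. Without it the receptor sum was below the ligand sum in both.

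Levels of known partners were then set side by side in 16 pairs taken from general knowledge of the family. The pairs were listed with earlier results of these data known. The receptor was higher beyond the spread in 11 pairs, the ligand in 3, and neither in 2. How many of all receptor and ligand combinations have the receptor higher was not counted. Receptors had the higher median as a group, so the count of 11 is not a result about partners. Several genes also occur in more than 1 pair. Among class 3 pairs, Nrp1 exceeded Sema3a 1.46-fold and Nrp2 exceeded Sema3f 2.27-fold. Plxnd1 exceeded Sema3e 9.00-fold, Plxnb1 exceeded Sema4d 4.68-fold and Plxnb2 exceeded Sema4c 5.33-fold. With coding transcripts alone these were 10.6-fold, 4.40-fold and 3.24-fold. Of the 11 pairs with the receptor higher, 8 had a class 3 or class 4 ligand. Most of the 16 listed pairs have such a ligand, and Sema3b, Sema3e and Sema3g among them were low, at 1.79, 1.06 and 0.735 TPM. The others were Plxna4 over Sema6b (1.69-fold), Plxna1 over Sema6d (2.23-fold) and Plxnc1 over Sema7a (12.9-fold).

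The 3 pairs with the ligand higher all involved class 5 or class 6. Sema5a exceeded its reported partner Plxnb3 in both replicates, by 3.58 and 3.52 on the log2(TPM + 1) scale. Sema6a exceeded Plxna4 by 2.31 and 2.26 on that scale. Sema5b exceeded Plxna1 by 0.45 and 0.36, but with coding transcripts alone Plxna1 was 1.11-fold higher and the genes did not differ by the rule. The undecided pairs were Nrp1 with Sema3c and Plxna2 with Sema6a. With coding transcripts both had the receptor higher, by 2.15-fold and 1.54-fold, which made 13 pairs with the receptor and 2 with the ligand higher.

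**Figure D4:**
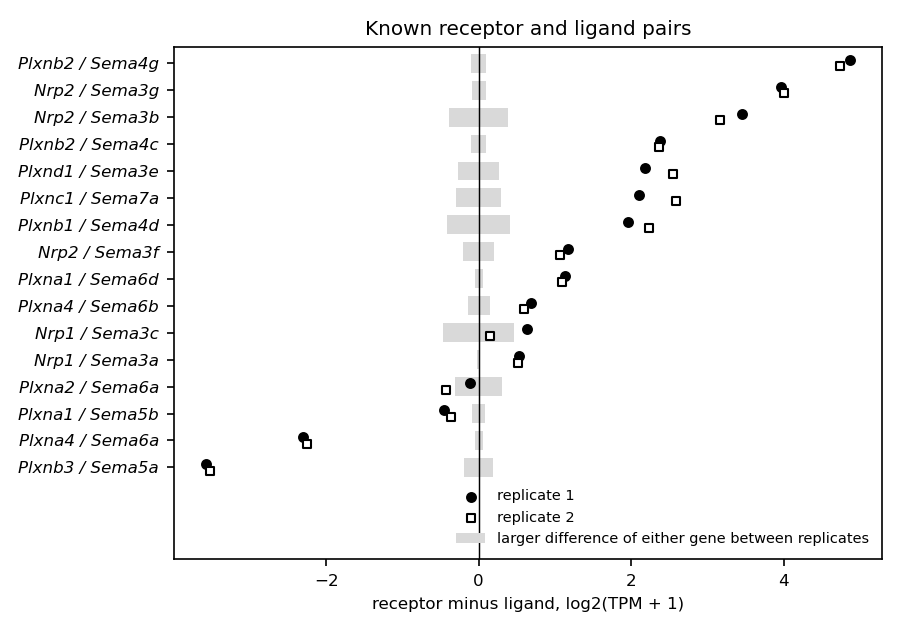
Receptor minus ligand level in log2(TPM + 1) for 16 known pairs, in replicate 1 (black circles) and replicate 2 (open squares), with the larger difference of either gene between the replicates as a grey band around 0. In 11 pairs both points lie to the right of the band, and in 3 pairs both lie to the left.

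The pools were then compared gene by gene. No member of the 31 differed 1.5-fold or more between them on the log2(TPM + 1) scale. Of all detected protein-coding genes 1.47% did, so a count of 0 among 27 detected members is near the background. Replicate 2 was higher in 14 genes and replicate 1 in 17, with a median difference of -0.02, against 0.01 over all detected named genes. The direction was the same under all 5 scalings tried for 27 genes and changed for Sema6a, Plxna1, Sema6d and Sema3a.

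The deposited intervals of the replicates did not overlap for 4 genes, Sema3c, Plxna2, Sema5a and Sema3e, and 3 of these were among the 27 detected genes, against a background of 15.2%. These intervals cover counting and read assignment only. Sema3c was higher in replicate 2 by 0.46 on the log2(TPM + 1) scale, the largest difference of the 31, from 1070 and 1546 expected counts. Plxna2 was lower in replicate 2 by 0.31, Sema3e by 0.27 and Sema5a by 0.19. Marker sums moved between the pools as well: replicate 2 had 1.22-fold the mesenchymal and meningeal sum, with 8 of 8 markers higher, 1.32-fold the mural sum, with 2 of 4 markers higher, 1.35-fold the erythroid sum, with 4 of 4 markers higher, 1.16-fold the microglial sum, with 4 of 4 markers higher, and 0.919-fold the neuronal sum, with 1 of 5 markers higher. The 3 head muscle markers summed to 2.28 and 6.57 TPM, the 3 eye markers to 1.81 and 4.52 TPM, and the 4 surface ectoderm markers to 41.1 and 34.7 TPM. The part of these cells in the differences of the 4 genes was not tested.

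**Figure D5:**
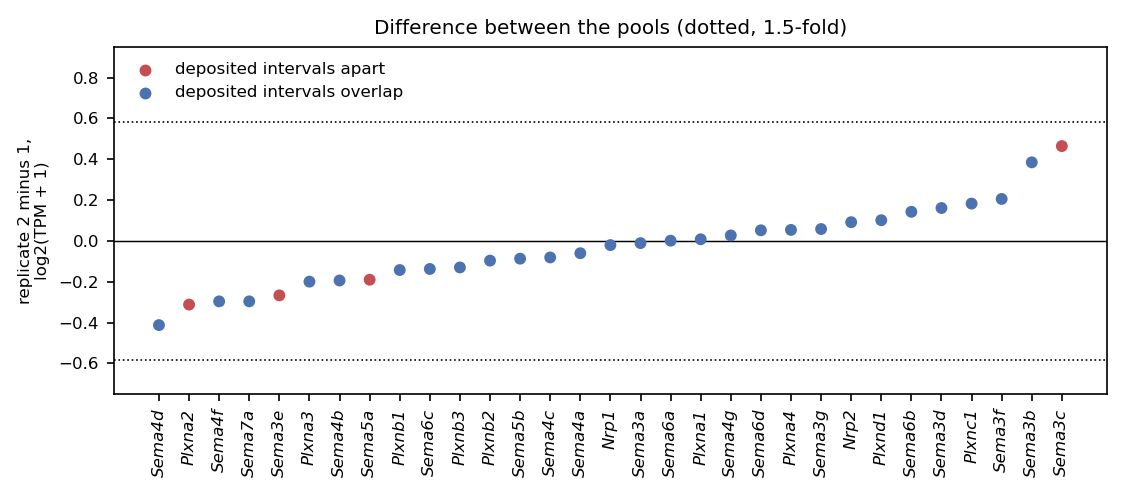
Difference in log2(TPM + 1), replicate 2 minus replicate 1, for each of the 31 genes in increasing order, with 1.5-fold marked by dotted lines and the 4 genes whose deposited intervals did not overlap in red. All points lie between the dotted lines, and Sema3c is the highest at 0.46.

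The other genes of the pathway were read against the 60.0% of protein-coding genes that pass 1 TPM in both replicates. Of 13 co-receptors 11 were at 1 TPM or more in both replicates, led by Itgb1, the beta1 integrin chain, at 105.5 and 115.6 TPM, Ptk7 at 45.7 and 44.8 TPM and the adhesion molecule Nrcam at 32.4 and 29.0 TPM. The receptor kinase Met was at 0.82 and 0.64 TPM and Timd2 was listed at 0 in both. All 34 effectors passed the threshold. The highest were the actin-severing protein Cfl1 at 2167 and 2146 TPM and the collapsin response mediators Dpysl2 at 554.6 and 373.7 TPM and Dpysl3 at 367.1 and 330.9 TPM. Of 12 processing proteases and other neuropilin ligands 11 passed, led by the sheddase Adam10 at 65.8 and 65.0 TPM, the protease Mmp14 at 57.3 and 57.8 TPM and Vegfb at 32.9 and 34.8 TPM. Vegfd was at 0.64 TPM in each replicate.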

How the data were processed

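Gene and transcript tables of 2 libraries were used. The authors deposited expected counts, which are estimated reads per feature, TPM, relative to all features with spike-ins included, FPKM, scaled by length and library size, posterior mean TPM with an interval of unstated level, and the percent of a gene's TPM carried by each transcript. Per the text deposited with the tables, the build was mm10 (GRCm38) with GENCODE M4. Which aligner and quantifier were run is not stated in the sources used here. Names, transcript types, exons and sequences came from GENCODE M21 by identifier without version.

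Members, partner lists, pairs and markers were chosen with earlier results of these data known. All 31 members are named, and of each partner list the 3 highest and every gene under 1 TPM in a replicate. Means and SDs are over 2 replicates. Levels were compared as log2(TPM + 1), which understates changes of low genes. With 1 group of 2 libraries no test was run. Reads carry no molecular identifiers, so intervals cover counting and assignment error only. Exon shares use coding transcripts that span the exon. Scaling alternatives used expected counts rounded to whole numbers, with edgeR 4.0.16 and DESeq2 1.42.0 in R 4.3.3. Other steps used Python 3.11.15, numpy 2.4.6, pandas 2.3.3 and matplotlib 3.10.9. The procedures were tested on simulated data.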

Additional observations from a re-analysis of the deposited data

How the results depend on the processing

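The difference between the receptor and ligand medians of log2(TPM + 1), 1.10 in the mean of the replicates, was 1.15 with a pseudocount of 0.1, 0.99 with the posterior mean TPM and 1.18 with protein-coding transcripts alone, and 1.06 to 1.14 without 1 replicate. The count of genes 1.5-fold apart between replicates rose from 0 to 2 with a pseudocount of 0.1, the added genes being Sema7a and Plxnb3. The median share of the leading transcript, 76.4%, was 70.3% with the posterior mean percent and 70.0% to 76.1% without 1 replicate. Detected genes numbered 22 at 5 TPM, 25 by FPKM, 27 by posterior mean TPM and 30 at 10 expected counts. Pairs with the receptor higher beyond the spread numbered 11 to 13 under the alternatives that kept both replicates. With replicate 1 or replicate 2 left out, the receptor was higher in 12 pairs. That count applies no rule of spread, since the rule needs both replicates. Neighbours that differed numbered 7 with a pseudocount of 0.1 and with the posterior mean TPM. Coding transcripts alone, added for neighbours after seeing the data, gave 14 in the order of gene TPM and 6 in the order of coding TPM. They turned 2 of the 7 neighbour calls, and Sema5b was no longer above Plxna1. No paired analysis was possible because with 1 group there is no second group whose replicates could be matched; genes were compared within each library. With 2 pools no test was run, and transcript shares rest on the assignment of short reads.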
